A study of Solanum lycopersicum with 95 samples.

Results

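The change in tomato fruits over 4 days of early growth was described in plants whose leaves and fruits received no supplementary far-red light (No FR). All plants were of the hybrid cultivar Foundation, grew under red and white light at a PPFD of 258 µmol m-2 s-1, and carried fruits that were 10 days past anthesis, with a tolerance of 1 day, when the first harvest (0 h) was made at 63 days after sowing. The contrast was between No FR fruits of 96 h (14 days after anthesis, 4 libraries) and No FR fruits of 0 h (10 days after anthesis, 4 libraries), which makes 8 of the 95 libraries analysed, chosen by light treatment, organ and time alone. The No FR fruits of 24 and 48 h (4 libraries each) gave the course, and 2 other contrasts stood beside it: Leaf FR fruits of 96 and 0 h, from plants whose leaves, stem and apex but not fruits received added far-red after the 0 h harvest, and No FR leaves of 96 and 0 h.

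Each library came from the first fruit of the second truss of 1 plant, at the immature green stage, and each plant was harvested once, so replicates were separate plants. All 4 harvest times fell at the same clock time. Fruit age went together with harvest day and plant age. Per the study's methods, plants were also rotated when treatment began, their trusses were passed through a plastic sheet and some leaves were removed. Effects of fruit age, plant age, harvest day and this handling cannot be told apart here, nor in the Leaf FR plants. Total counts of the 8 libraries ran from 15663065 to 17013215, and 21372 to 22068 of the 34075 genes in the table had a count in each of the 24 fruit libraries used. Gene identifiers came with no names, so the fruit label could not be checked against marker genes, and names were given only to the 48 genes that the study lists by identifier. Levels are CPM, counts scaled to a common library total, which are not per gene length and are not compared between genes. A fruit is a mixture of tissues, and fewer cells of a type and less RNA per cell cannot be told apart in these libraries.

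A young tomato fruit grows first by cell division and then mainly by cell expansion, and the shift falls in the first weeks after pollination. Cytokinin is associated with division, auxin and gibberellin with fruit set and expansion, and each hormone's level is set by enzymes that make it and enzymes that remove it. Expansins loosen the cell wall, and sucrose delivered by the phloem is split by sucrose synthase or invertase before it feeds starch, glycolysis and respiration.

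The transcriptome of No FR fruits changed over the 4 days, with more and larger increases than decreases among the calls. Of 18454 genes tested, 1594 passed the threshold at 96 h against 0 h (8.64%; edgeR quasi-likelihood test, Benjamini-Hochberg adjusted P under 0.05), 947 higher (5.13%) and 647 lower (3.51%) in 96 h fruits. The median log2 fold change was 1.20 among the genes that rose and -0.73 among those that fell. Among the genes that rose, 562 (59.3%) had a log2 fold change above 1, whereas 206 (31.8%) of the genes that fell were below -1. The remaining 826 calls (51.8%) lay between -1 and 1. In 898 of the genes that rose and 605 of those that fell, the 4 libraries of 96 h did not overlap the 4 of 0 h. Over all genes tested, such separation was seen in 8.48% upwards and 7.66% downwards. Genes that were close to silent at one age were few: 26 of the genes that rose had under 3 counts in every 0 h library, and 4 of those that fell had under 3 counts in every 96 h library. By the chromosome in the identifier, the share of tested genes called lay between 7.64% and 10.1% on each of the 12 chromosomes.

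**Figure D1:**
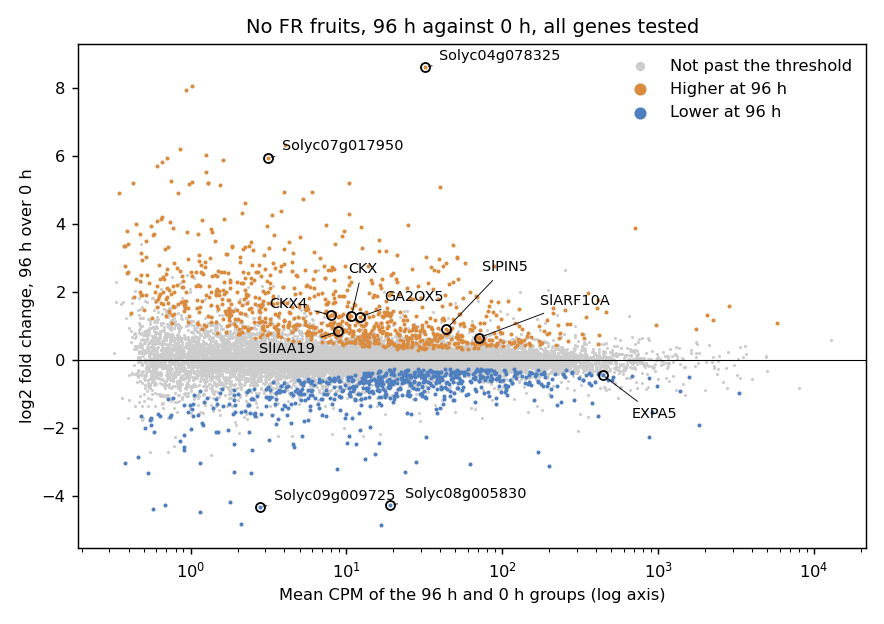
The log2 fold change of each gene tested, 96 h over 0 h in No FR fruits, is plotted against its mean CPM on a log axis, with genes past the threshold coloured by direction and the named or singled-out ones circled. The 947 genes that rose reach 8.62 and the 647 that fell reach -4.87.

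The number of calls rested on particular fruits. Leaving out one library at a time gave 582 calls without 0 h fruit 4, 683 without 96 h fruit 4, 916 without 0 h fruit 3, 1003 without 96 h fruit 3 and at most 1857 without 0 h fruit 2. DESeq2 called 2440 genes on the same 8 libraries (1315 higher and 1125 lower), 1580 of the 1594 among them.

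The largest changes among genes above 5 CPM at one age, and separated in all 8 libraries, were in genes that carry no name here. Solyc04g078325 had 40.4, 13.2, 92.4 and 108 CPM in the 96 h fruits, against 0, 0.528, 0 and 0.123 CPM in the 0 h fruits, which is 8 and 2 counts in the 2 fruits where it was found at 0 h. In the course it stayed at or below 1.40 CPM in the 24 h fruits and spread from 0.187 to 36.5 CPM in the 48 h fruits. The groups of 96 h and 0 h did not overlap, as its choice required. The fitted log2 fold change was 8.62 (SE 0.94, edgeR adjusted P = 9.68e-04), a size that depends on the few counts at 0 h. In No FR leaves of the same days it had 1 to 10 counts a library at 96 h and 2 to 21 counts a library at 0 h.

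Solyc07g017950 had 2.76, 3.29, 6.51 and 12.0 CPM at 96 h, against 0.177, 0.198, 0 and 0 CPM at 0 h (log2 fold change 5.95, SE 0.77, edgeR adjusted P = 0.00205). Of the genes that fell, Solyc08g005830 had 1.57, 4.91, 0.250 and 0.651 CPM at 96 h, against 16.2, 7.19, 97.2 and 25.0 CPM at 0 h (log2 fold change -4.28, SE 0.92, edgeR adjusted P = 0.0204). Solyc09g009725 had 0.188, 0.578, 0.125 and 0.118 CPM at 96 h, against 1.48, 0.990, 10.3 and 8.36 CPM at 0 h (log2 fold change -4.33, SE 0.89, edgeR adjusted P = 0.0166). All 3 genes, chosen among those separated between the ages, had no count in any of the 8 No FR leaf libraries. That allows a level of up to 0.0231 CPM over these libraries together. The calls of both genes that fell did not survive every omission: Solyc08g005830 had an edgeR adjusted P of 0.0501 without 96 h fruit 1 and 0.0695 without 96 h fruit 4, and Solyc09g009725 had 0.0594 without 96 h fruit 4 and 0.0535 without 0 h fruit 4.

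The Leaf FR plants gave fruits of the same 2 ages in 8 other libraries, so that the direction of each gene could be read again, although the leaves of these plants had received added far-red for the 4 days. Of 18277 genes tested there, 2726 were called (14.9%), 1261 higher (6.9%) and 1465 lower (8.02%) at 96 h. Of these calls, 307 had a log2 fold change above 1 and 438 were below -1. The excess of increases among the No FR calls was thus not seen again. Of the 947 genes that rose in No FR fruits, 878 were tested in Leaf FR fruits, and 780 (88.8%) had a positive log2 fold change there, with a median of 0.55. Of the 647 that fell, 643 were tested and 616 (95.8%) were negative, with a median of -0.52. Over all genes tested in Leaf FR fruits, 49.8% were positive and 50.2% negative. Past the threshold and in the same direction in both were 619 genes, which is 38.8% of the No FR calls and 22.7% of the Leaf FR calls, and 1 gene was called in opposite directions. Across the 18170 genes tested in both, the log2 fold changes had a Pearson correlation of 0.77, a description across genes, which are not independent. The genes singled out above had log2 fold changes of 7.10 (Solyc04g078325), 5.25 (Solyc07g017950), -5.63 (Solyc08g005830) and -5.66 (Solyc09g009725) in Leaf FR fruits, with edgeR adjusted P of 0.0104 or less. The Leaf FR count also rested on single fruits and was 654 without 0 h fruit 4, 684 without 0 h fruit 1, 869 without 96 h fruit 4, 1033 without 0 h fruit 2, 1534 without 96 h fruit 1, 1630 without 96 h fruit 3, 1783 without 96 h fruit 2 and 4811 without 0 h fruit 3.

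The genes called in Leaf FR fruits were then used to place every No FR fruit along the change, since they were chosen without any No FR library. A stage score was taken as the mean log2 CPM of the 1261 genes that rose minus that of the 1465 that fell, set to 0 at the mean of the No FR fruits of 0 h. The score was 0.14, 0.65, -0.69 and -0.10 in the 0 h fruits, -0.38, 0.22, -0.24 and 0.61 in the 24 h fruits, 0.52, 0.39, 0.97 and 1.37 in the 48 h fruits, and 0.91, 0.92, 1.59 and 1.52 in the 96 h fruits. The fruits of 96 h lay above all those of 0 h and 24 h, while those of 48 h overlapped their neighbours on both sides. Fruits of one age differed widely: the 0 h fruits alone ran from -0.69 to 0.65, a range wider than the distance of 1.24 between the means of 96 h and 0 h.

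**Figure D2:**
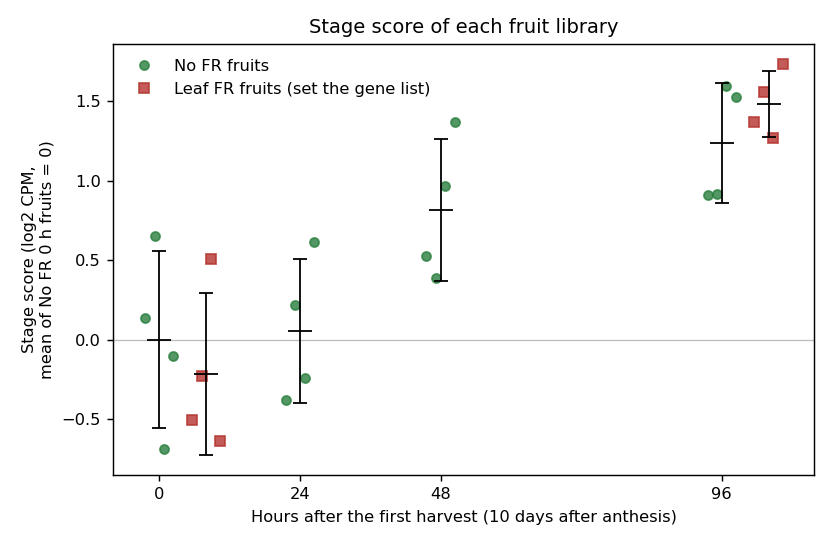
The stage score of each fruit library is plotted against hours after the first harvest, with the mean and SD of each group (n = 4) in black. No FR fruits averaged 0 ± 0.56, 0.05 ± 0.45, 0.81 ± 0.45 and 1.24 ± 0.37 after 0, 24, 48 and 96 h, and the Leaf FR fruits that set the gene list averaged -0.22 ± 0.51 at 0 h and 1.48 ± 0.21 at 96 h.

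The steps of the course were compared as values, without a test of one step against another. Between 24 h and 0 h the mean score differed by 0.05, between 48 h and 24 h by 0.76 and between 96 h and 48 h, a step of 48 h, by 0.42, each set against a pooled SD of 0.41 to 0.51 between fruits. With any one fruit left out, the first step stayed between -0.18 and 0.27, the middle step between 0.57 and 0.95 and the last step between 0.28 and 0.61. Per gene, the same lists had a median log2 fold change of 0.00 (rising list) and -0.01 (falling list) at 24 h against 0 h, 0.25 and -0.29 at 48 h against 24 h, and 0.13 and -0.16 at 96 h against 48 h. In the first step 51.0% of the rising list was positive and 53.9% of the falling list negative, beside 50.4% and 49.6% of all genes tested. In the middle step the shares of the lists were 89.5% and 94.4%, beside 48.2% and 51.8%. In the last step they were 76.2% and 75.6%, beside 51.8% and 48.2%.

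The middle step shares no library with the contrast of 96 h and 0 h, so the No FR calls could be looked up in it as well. Of the genes that rose by 96 h, 808 of 890 tested (90.8%) were higher at 48 h than at 24 h, with a median log2 fold change of 0.42. Of the genes that fell by 96 h, 539 of 643 (83.8%) were lower, with a median of -0.23. Among all genes tested in this step 48.2% were positive and 51.8% negative.

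**Figure D3:**
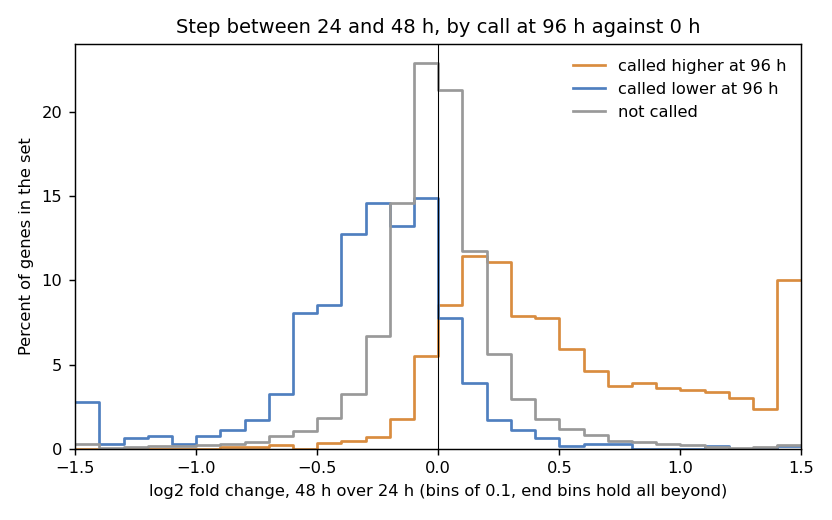
The log2 fold change of 48 h over 24 h in No FR fruits is drawn as the percent of genes in bins of 0.1, for genes called higher, called lower or not called at 96 h against 0 h, with values beyond the axis held in the end bins. The genes called higher are shifted to the right (median 0.42) and those called lower to the left (median -0.23).

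Gene by gene, the single steps carried few calls at 4 fruits a time. At 24 h against 0 h, 15 of 18268 genes passed (0.0821%), 5 higher (0.0274%) and 10 lower (0.0547%). At 48 h against 24 h 5 of 18406 passed (0.0272%), all higher, and at 48 h against 0 h 1 of 18373 did (0.00544%). That gene, Solyc06g060830, named here because it was the only one, had a log2 fold change of 1.19 (SE 0.09, edgeR adjusted P = 0.00166) at 48 h, and its values of 0.80 for the 24 h fruits and 0.89 for the 96 h fruits, likewise against 0 h, also passed the threshold. Of the 5 genes of the middle step, 3 had been lower at 24 h than at 0 h. Among them was Solyc10g074540, picked after its values were seen. It had -1.02 (SE 0.09, edgeR adjusted P = 0.00905) at 24 h against 0 h and 0.99 (SE 0.09, edgeR adjusted P = 0.0110) at 48 h against 24 h. At 96 h against 0 h it had 0.03. Both steps use the same 24 h fruits, so a low level in those fruits enters both with opposite sign and was not seen in separate libraries. At 96 h against 48 h 0 of 18478 genes passed edgeR (0%, lowest adjusted P = 0.557), with 1321 at an unadjusted P under 0.05, and DESeq2 called 25. For the other steps DESeq2 called 161 (24 h against 0 h), 301 (48 h against 24 h) and 477 (48 h against 0 h), and without 48 h fruit 2 the edgeR count of the last of these was 199. For 24 h against 0 h edgeR called 52 genes without 24 h fruit 1, and 8 or fewer without any of 24 h fruits 2, 3 and 4 and 0 h fruits 3 and 4. For 48 h against 24 h it called 16 without 24 h fruit 1 and 0 without 24 h fruit 3 or 48 h fruit 1 or 3.

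A linear trend fitted to all 16 No FR fruits (0, 24, 48 and 96 h) used the course as a whole. It passed in 3238 of 18807 genes (17.2%), 1712 upwards (9.1%) and 1526 downwards (8.11%). Without 96 h fruit 4 it passed in 1947 genes, and without 96 h fruit 3 in 2054. Over the same 16 libraries the first principal component held 47.3% of the variance, and its scores ran from -62.0 to -2.99 in the 0 h fruits, from -50.1 to 1.09 in the 24 h fruits, from -13.2 to 43.4 in the 48 h fruits and from 29.0 to 54.0 in the 96 h fruits. On this axis, too, the 96 h fruits lay above all 0 h and 24 h fruits and overlapped those of 48 h.

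Among the 48 named genes, 6 rose and 1 fell at 96 h against 0 h in No FR fruits, beside 5.13% and 3.51% of all genes tested. These genes were listed by the study for a difference between Leaf FR and No FR plants, so that a high or low level in the No FR libraries of the listed time helped to choose them. That time was 96 h for most, 24 h alone for ToFZY, 48 h alone for SlHDG7, SlCYP735A1, GA20OX1 and SlLBD38, and both 24 h and 96 h for EXPA5, SlDIR1 and TMF. The direction of a gene at a time for which it was listed is not independent evidence.

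CKX4, CKX and GA2OX5, named for the removal of cytokinin or gibberellin, rose. Of the 5 genes in the cytokinin and gibberellin list, these 3 rose and none fell. The median log2 fold change of the list was 1.26, beside a median near 0 over all genes. All 3 were listed for 96 h as lower in Leaf FR than in No FR fruits. High values in the No FR fruits of 96 h thus helped to list them, and the list median is not independent evidence of a rise. CKX4, a cytokinin oxidase that degrades cytokinin, had 10.7, 8.61, 12.8 and 13.1 CPM in the 96 h fruits, against 4.84, 5.48, 4.34 and 3.50 CPM in the 0 h fruits. Its log2 fold change was 1.31 (SE 0.18, edgeR adjusted P = 0.00282), and every 96 h fruit was above every 0 h fruit.

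A second cytokinin oxidase gene, listed as CKX, had 18.4, 14, 11.7 and 16.9 CPM at 96 h, against 5.08, 4.29, 9.33 and 6.33 CPM at 0 h (log2 fold change 1.28, SE 0.23, edgeR adjusted P = 0.0102). GA2OX5, a gibberellin 2-oxidase that inactivates gibberellins, had 19.3, 17.1, 16.6 and 16.2 CPM at 96 h, against 6.73, 7.06, 9.51 and 5.59 CPM at 0 h (log2 fold change 1.26, SE 0.15, edgeR adjusted P = 0.00162). Both were separated between the ages, and GA2OX5 was the more even of these genes at 96 h. The gene listed as GA20OX1 averaged 71.1 ± 19 CPM at 96 h and 49.5 ± 12 CPM at 0 h (SD, n = 4 each; log2 fold change 0.52, edgeR adjusted P = 0.162), with overlapping groups. Its identifier, Solyc03g006880, also stands under the name GA2OX1 in the study's list, so that it could be a gibberellin 20-oxidase of synthesis or a 2-oxidase of inactivation. SlCYP735A1, a cytochrome P450 of trans-zeatin synthesis, had a log2 fold change of 0.09 (edgeR adjusted P = 0.83).

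In the course their means at 24 and 48 h lay between those of 0 and 96 h. CKX4 averaged 4.54 ± 0.83, 5.25 ± 1.4, 7.33 ± 3.1 and 11.3 ± 2.1 CPM after 0, 24, 48 and 96 h (SD, n = 4 each). GA2OX5 averaged 7.22 ± 1.6, 9.29 ± 2.5, 10.7 ± 3.7 and 17.3 ± 1.4 CPM at the same times, and CKX 6.26 ± 2.2, 9.23 ± 3.9, 10.6 ± 1.8 and 15.3 ± 3.0 CPM. At 48 h against 0 h their log2 fold changes were 0.70 (CKX4), 0.57 (GA2OX5) and 0.76 (CKX), none of which passed the threshold, and their 48 h libraries overlapped those of 24 h. At 96 h against 48 h none of these genes passed (edgeR adjusted P = 0.663 for each). The libraries of GA2OX5 (16.2 to 19.3 against 6.84 to 15.6 CPM) did not overlap in this step. Those of CKX (11.7 to 18.4 against 7.84 to 11.5 CPM) were separated by a narrow margin, and those of CKX4 overlapped. The share of all genes separated in this step was not counted, and 96 h is the time for which these genes were listed. The calls of CKX4 and GA2OX5 held with any library left out and with the 0 h fruits of the Leaf FR plants in place of the No FR baseline, while CKX had 0.73 (edgeR adjusted P = 0.0904) with that baseline.

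**Figure D4:**
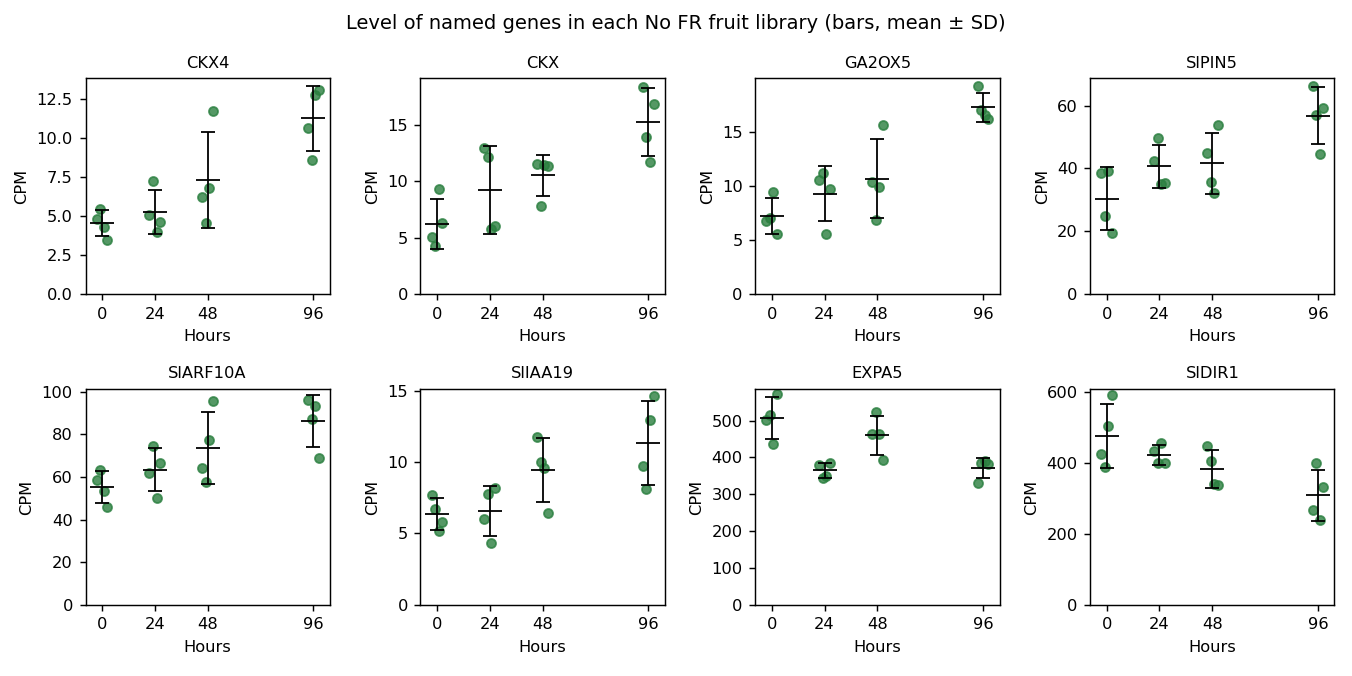
CPM of 8 named genes in each No FR fruit library is plotted against hours after the first harvest, with the mean and SD of each time (n = 4) in black and a separate axis from 0 for each gene. CKX4, CKX, GA2OX5, SlPIN5, SlARF10A and SlIAA19 climb towards 96 h, EXPA5 is low at both 24 h and 96 h, and SlDIR1 declines over the course.

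In the auxin list of 11 genes, 3 rose and none fell, beside 5.13% and 3.51% of all genes tested, with a median log2 fold change of 0.11. SlPIN5, of the PIN family of auxin transporters, had 66.3, 57.1, 44.5 and 59.1 CPM at 96 h, against 38.4, 24.8, 39.1 and 19.4 CPM at 0 h (log2 fold change 0.90, SE 0.22, edgeR adjusted P = 0.0315). SlARF10A, an auxin response factor, had 96.1, 87.2, 93.0 and 68.8 CPM at 96 h, against 58.7, 63.2, 53.4 and 45.7 CPM at 0 h (log2 fold change 0.64, SE 0.13, edgeR adjusted P = 0.0151). The ages did not overlap for either gene. Both were listed for 96 h as lower in Leaf FR than in No FR fruits. High values in the No FR fruits of 96 h thus helped to list them, and neither their rise nor the separation is independent evidence.

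SlIAA19, of the Aux/IAA family of auxin-induced repressors, had 9.71, 8.09, 13.0 and 14.6 CPM at 96 h, against 7.73, 6.73, 5.17 and 5.78 CPM at 0 h (log2 fold change 0.83, SE 0.20, edgeR adjusted P = 0.0334). Its groups were separated by a narrow margin. Unlike SlPIN5 and SlARF10A, it was listed for 96 h as higher in Leaf FR than in No FR fruits. The other 8 genes of the list lay between -0.16 and 0.33, among them SlPIN4 at -0.0040, the auxin biosynthesis gene ToFZY at -0.16 and the response factor gene SlARF2 at 0.11. The study's list spells out SlARF2 with the number of another response factor, so which member of the family it is was not settled here. The difference between SlPIN4 and SlPIN5 was not tested.

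In the course the 3 auxin genes that rose had intermediate means. SlPIN5 averaged 30.4 ± 9.9, 40.6 ± 7.0, 41.6 ± 9.7 and 56.8 ± 9.1 CPM at 0, 24, 48 and 96 h, SlARF10A 55.2 ± 7.5, 63.2 ± 10, 73.6 ± 17 and 86.3 ± 12 CPM, and SlIAA19 6.35 ± 1.1, 6.59 ± 1.8, 9.45 ± 2.2 and 11.3 ± 3.0 CPM (SD, n = 4 each). The linear trend over the 16 fruits passed for all 3, with slopes of 0.21, 0.16 and 0.23 log2 units a day and edgeR adjusted P of 0.00910, 0.00668 and 0.00915, in that order. These trends include the fruits of 96 h, the time for which all 3 were listed. The contrast of 96 h and 0 h was less firm: SlPIN5 did not pass without 96 h fruit 1, 2 or 4 or 0 h fruit 2 or 4 (edgeR adjusted P 0.0515 to 0.0832), nor SlIAA19 without 96 h fruit 3 or 4 or 0 h fruit 3 or 4 (0.0807 to 0.107), nor SlARF10A without 0 h fruit 4 (0.0525). With the 0 h fruits of the Leaf FR plants as baseline the log2 fold change of SlPIN5 was 0.41 (edgeR adjusted P = 0.199).

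Of the 5 genes in the list of an expansin and other listed genes, 1 fell and none rose in edgeR, while DESeq2 also called SlDIR1 lower and SlHDG7 higher. EXPA5, an expansin, had 331, 384, 389 and 383 CPM at 96 h, against 501, 516, 437 and 573 CPM at 0 h (log2 fold change -0.45, SE 0.11, edgeR adjusted P = 0.0340), with separated groups. It averaged 507 ± 56, 365 ± 21, 461 ± 53 and 372 ± 27 CPM after 0, 24, 48 and 96 h (SD, n = 4 each), and its linear trend did not pass (edgeR adjusted P = 0.108). The low values at 24 and 96 h fall at the times for which the gene was listed as higher in Leaf FR fruits. The call at 96 h held only without 0 h fruit 3. Without any other library the edgeR adjusted P was 0.0548 to 0.109, and with the Leaf FR 0 h baseline it was 0.159 at a log2 fold change of -0.25.

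SlDIR1 had 267, 398, 238 and 331 CPM at 96 h, against 424, 387, 504 and 589 CPM at 0 h (log2 fold change -0.63, SE 0.18). The 96 h fruit 2 lay above the 0 h fruit 2, and the contrast did not pass in edgeR (adjusted P = 0.0629) but did in DESeq2 (adjusted P = 0.0114). Over the course it averaged 476 ± 90, 422 ± 28, 382 ± 54 and 308 ± 72 CPM at 0, 24, 48 and 96 h, and its linear trend of -0.15 log2 units a day passed (edgeR adjusted P = 0.00846). SlHDG7, of the HD-ZIP IV family of transcription factors, was close to the detection limit, with 1.12 ± 0.40 CPM at 96 h and 0.383 ± 0.27 CPM at 0 h (SD, n = 4 each; log2 fold change 1.53, SE 0.50, edgeR adjusted P = 0.0876, DESeq2 adjusted P = 0.0493). Its linear trend of 0.39 log2 units a day passed (edgeR adjusted P = 0.0289). TMF had a log2 fold change of -0.32 (edgeR adjusted P = 0.551) and SlLBD38 one of -0.03 (edgeR adjusted P = 0.945).

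The genes of carbohydrate use and respiration showed no change past the threshold over the 4 days. Of the 27 genes 0 were called by edgeR and 0 by DESeq2, with 1 (SlFUM1) at an unadjusted P under 0.05, and the log2 fold changes lay between -0.66 and 0.19. In the sucrose cleavage list of 4 genes the median was -0.25: SUS1, a sucrose synthase, averaged 2505 ± 373 CPM at 96 h and 2963 ± 553 CPM at 0 h (log2 fold change -0.24), and LIN9, an invertase, 4.52 ± 1.7 CPM at 96 h and 7.20 ± 3.1 CPM at 0 h (log2 fold change -0.66, edgeR adjusted P = 0.276; SD, n = 4 each). Each group overlapped its counterpart.

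The 4 starch genes had a median of 0.07, with AGPase-S1, a small subunit of ADP-glucose pyrophosphorylase, at 593 ± 12 CPM in 96 h fruits and 533 ± 127 CPM in 0 h fruits (SD, n = 4 each). The 11 glycolysis genes had a median of -0.02 and ran from -0.21 (GAPDH-c) to 0.19 (SlPFK3, a phosphofructokinase). All 8 genes of the citrate cycle and respiration had negative log2 fold changes, from -0.23 to -0.07 with a median of -0.15, and none passed. SlFUM1, a fumarase, had 76.7, 74.3, 67.3 and 72.9 CPM at 96 h, against 79.6, 90.6, 77.7 and 88.4 CPM at 0 h, which did not overlap, with a log2 fold change of -0.21 (SE 0.08, edgeR adjusted P = 0.155). All 27 were listed for 96 h as higher in Leaf FR than in No FR fruits, so low values in the No FR fruits of 96 h helped to list them.

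**Figure D5:**
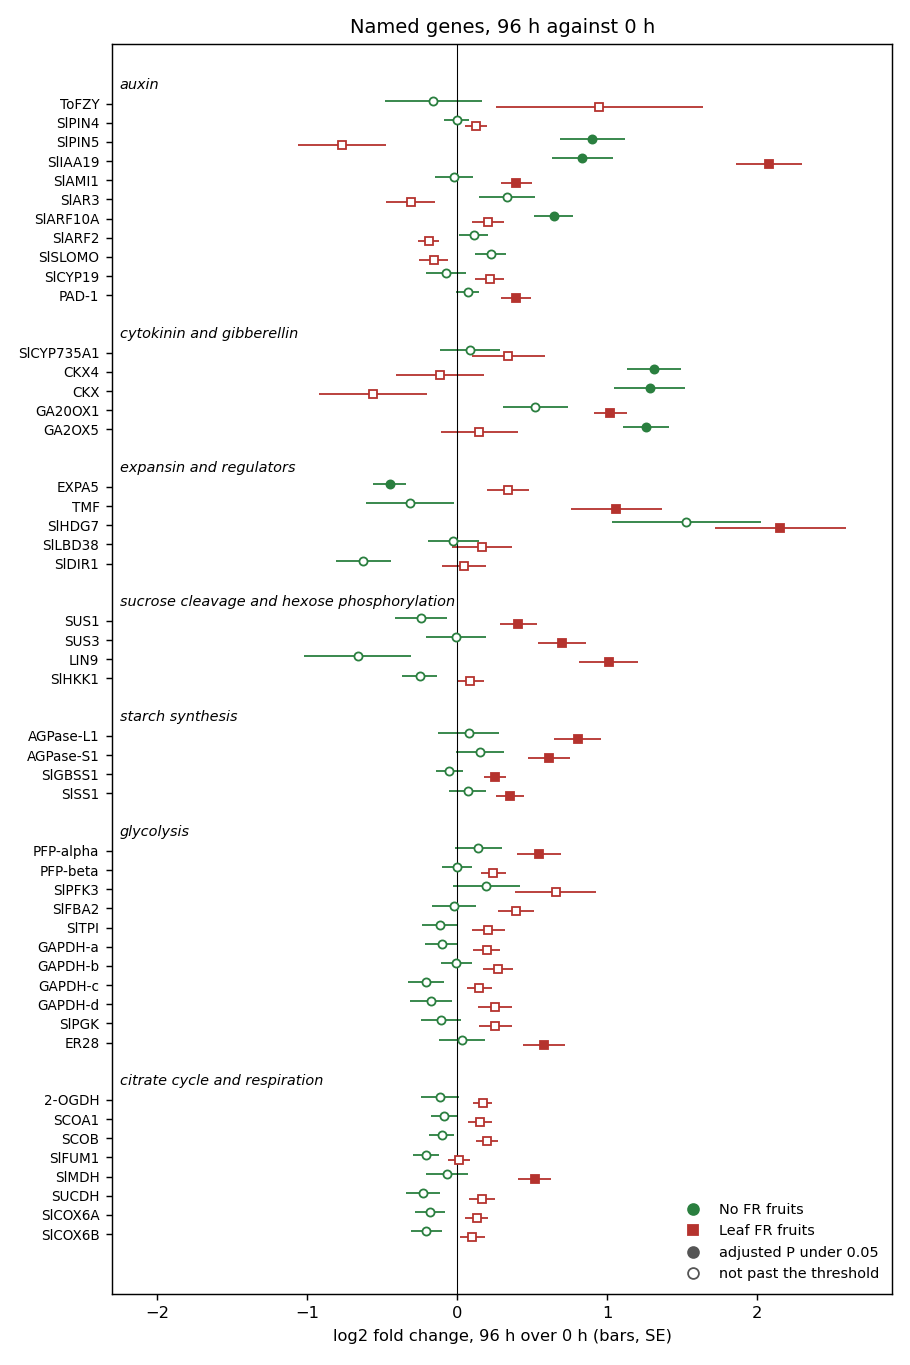
The log2 fold change of 96 h over 0 h with its SE is plotted for the 48 named genes, by list, in No FR fruits (circles) and Leaf FR fruits (squares), filled where the edgeR adjusted P was under 0.05. In No FR fruits 6 genes rose and 1 fell, and none of the 27 genes in the lower 4 lists passed. In Leaf FR fruits 16 rose, 10 of them in those lists.

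In the Leaf FR fruits the named genes that moved in No FR fruits had the following values. CKX4 averaged 3.91 ± 1.7 CPM at 96 h and 4.26 ± 1.1 at 0 h there, GA2OX5 8.53 ± 2.9 CPM at 96 h and 7.73 ± 2.0 at 0 h, and SlPIN5 25.0 ± 11 CPM at 96 h and 42.8 ± 14 at 0 h (SD, n = 4 each). None of these passed edgeR, and DESeq2 called SlPIN5 lower at 96 h (log2 fold change -0.77 and adjusted P = 0.10 in edgeR, adjusted P = 0.0391 in DESeq2). CKX averaged 6.18 ± 3.2 CPM at 96 h and 9.19 ± 3.6 at 0 h (log2 fold change -0.56, edgeR adjusted P = 0.303), EXPA5 555 ± 102 CPM at 96 h and 441 ± 55 at 0 h (0.34, edgeR adjusted P = 0.128), and SlARF10A 65.1 ± 4.8 CPM at 96 h and 56.6 ± 8.9 at 0 h (0.21, edgeR adjusted P = 0.211). The fitted values of CKX4, CKX, SlPIN5 and EXPA5 had the opposite sign to those in No FR fruits. SlIAA19 rose in both, with a log2 fold change of 2.08 (edgeR adjusted P = 0.00484) in Leaf FR fruits. All 7 genes were listed by the study for a difference between Leaf FR and No FR fruits of 96 h, so a difference between the contrasts was favoured by their choice. The difference between No FR and Leaf FR fruits in the change was tested directly, an alternative added after the data were seen. In edgeR it passed in 0 of 18768 genes (0%, 1661 at an unadjusted P under 0.05), while DESeq2 called 46 genes. Of the genes that moved in No FR fruits, DESeq2 gave an adjusted P of 0.0233 for SlPIN5, 0.0224 for EXPA5, 0.0371 for CKX and 0.0496 for CKX4, where edgeR gave 0.357 for each. Without Leaf FR 96 h fruit 2 the edgeR count was 58.

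The leaves of No FR plants, harvested on the same days, were set beside the fruits. By the study's account, both organs of a harvest came from the same plants. The organ by time test below treated leaf and fruit libraries as independent and made no use of this pairing. Its effect on the calls of that test was not tested. In leaves 0 of 17492 genes passed edgeR (0%, lowest adjusted P = 0.214), with 2985 at an unadjusted P under 0.05 and 645 called by DESeq2. Leaf libraries varied more, with a common biological coefficient of variation of 31.0%, against 16.5% in the fruits. Of the genes that rose in fruits 511 were tested in leaves, and 303 (59.3%) were positive there. Of those that fell, 522 were tested and 328 (62.8%) were negative, while over all genes tested in leaves 51.1% were positive and 48.9% negative. The Pearson correlation between the changes of fruit and leaf was 0.10 across 16241 genes. The test of the difference itself, organ by time, passed in 48 of 19759 genes (0.243%), 43 with a more positive change in fruits (0.218%) and 5 with a more negative one (0.0253%), and 33 and 4 of these were among the fruit calls. It called between 11 genes (without fruit 1 of 0 h) and 253 genes (without leaf 3 of 0 h) when one library was left out. Solyc04g078325 was among the 48 (edgeR adjusted P = 0.0225), and none of the 48 genes with a name was. For genes without a count in leaves the edgeR test could not decide, as the leaf change has no estimate. Among them were CKX (SE 3046), Solyc07g017950, Solyc08g005830 and Solyc09g009725, so their failure to pass says nothing about a difference between the organs. DESeq2 called 568 genes in this test, among them SlARF10A (DESeq2 adjusted P = 0.00741, edgeR 0.0862), PAD-1 (DESeq2 0.0103) and AGPase-S1 (DESeq2 0.0115). For PAD-1 and AGPase-S1 the larger fitted change was in leaves. Their log2 fold changes were 0.07 and 0.15 in fruits, and -0.57 and -0.78 in leaves. The fitted log2 fold change of SlARF10A in leaves was -0.20 (SE 0.17, edgeR adjusted P = 0.53), so its direction there was not settled.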

How the data were processed

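RNA of fruits and of leaflets was sequenced as paired-end reads on the DNBSEQ platform. Per the labels and the study's methods, the authors aligned reads with Bowtie2 to the ITAG tomato reference, estimated counts per gene with RSEM and used DESeq2. The deposited table holds these expected counts as whole numbers. The deposited normalised table was not used.

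Here the counts were tested with edgeR 4.0.16 (quasi-likelihood F test, TMM; limma 3.58.1, R 4.3.3), keeping a gene where 3 or more of the fitted libraries reached 10 counts, with Benjamini-Hochberg adjustment over all genes tested and a threshold of 0.05. Each contrast was fitted on its own 8 libraries, the trend on 16, and the interactions on 16. The organ by time fit held no term for the plant that leaf and fruit shared. The SE is the log2 fold change divided by the square root of F. CPM used 1 TMM scale over 24 fruit libraries, and 1 over 8 leaf libraries. Scores used a prior count of 2. DESeq2 1.42.0, its size factors, no filter, a replicate block, 1 fit over 16 libraries, another baseline and leaving out each library were alternatives. The fits were tested on simulated counts.

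The contrast, gene lists and alternatives were chosen with earlier results of these data known. Named genes were all those with an identifier in the study's lists of abbreviations, plus, for genes without a name, the 2 largest rises and 2 largest falls with adjusted P under 0.05, separated ages and at least 5 CPM at the higher age. GAPDH-a to -d, AGPase-L1 and -S1, and PFP-alpha and -beta are working names. Lists by product and cell type markers could not be applied, because the annotation used here holds none of the identifiers of the table. The 48 pairs of libraries of 1 group differed by at least 9.01 times their sampling noise (chi-square per degree of freedom), so all were kept as separate samples.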

Additional observations from a re-analysis of the deposited data

Results flagged for a closer look

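Among 192 sets of 4 fruits tested, 4 had a fruit far from the other 3, where chance alone marks about 1 in 20 sets. At 96 h these were SlPIN4 in fruit 3, at 119.8 CPM with the nearest fruit at 128.8, EXPA5 in fruit 1, at 331 CPM with the nearest at 383, and GAPDH-b in fruit 4, at 569.7 CPM with the nearest at 661. At 48 h it was CKX in fruit 2, at 7.84 CPM with the nearest at 11.4.

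The change from 0 h differed between fruits and leaves of No FR plants in 48 genes by edgeR's test of organ by time. That test ignored that both organs came from the same plants.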

How the results depend on the processing

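The direction of each of the 48 named and 4 singled-out genes at 96 h against 0 h was kept under all alternatives wherever it was called. Of these gene-level comparisons, 691 stayed on their side of the threshold, 30 lost a call and 7 gained one. DESeq2 moved the counts to 2440 (96 h against 0 h), 161 (24 h against 0 h), 477 (48 h against 0 h), 301 (48 h against 24 h), 25 (96 h against 48 h), 645 (leaves), 568 (organ by time) and 46 (light by time). For 96 h against 0 h the Leaf FR 0 h baseline gave 2418 calls, and requiring a log2 fold change beyond 1 gave 768. Without the filter 45 (24 h against 0 h) and 14 (48 h against 24 h) were called, and in 1 fit over 16 libraries 40 and 15. Replicate numbers name different plants and did not pair: deviations of same-numbered fruits of 96 h and 0 h correlated between -0.26 and 0.17, and 0 of 4 matched best with their own number. With a replicate block 626 genes were called (497 higher, 129 lower), and in the other contrasts 31 (24 h against 0 h), 0 (48 h against 0 h), 10 (48 h against 24 h), 5 (96 h against 48 h) and 104 (Leaf FR fruits). Leaving out one library gave 582 to 1857 (96 h against 0 h), 0 to 52 (24 h against 0 h), 1 to 199 (48 h against 0 h), 0 to 16 (48 h against 24 h), 0 to 1 (96 h against 48 h), 654 to 4811 (Leaf FR fruits), 0 to 1 (leaves), 1947 to 3832 (trend), 11 to 253 (organ by time) and 0 to 58 (light by time). The cause of these shifts was not tested. Depth was even, with fruit totals of 15663065 to 17957406 counts, and each time had 4 fruits.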
